A study of Rattus norvegicus with 19 samples.

Results

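The transcripts of 7 mitochondrial proteins tied to hypoxia-inducible factor (HIF) or to the removal of mitochondria were followed in rat renal cortex: the mitophagy receptors Bnip3, Bnip3l and Fundc1, and the mitochondrial proteins Mgarp, Higd1a, Cox4i2 and Ndufa4l2. Their probes were taken by the gene name in the scanner files. This gave 10 probes for the 7 genes, out of 45598 probes, and all 10 were well above background on at least 5 of 19 arrays, so that all 7 genes were among the 24217 genes tested. The genes were chosen by their known roles and with measured values of these data in view, the differences between enarodustat-treated and untreated diabetic rats. The comparisons that involve enarodustat are therefore given for these 7 genes as a description. Where genes past the threshold are counted in them, the count is a label and not a test of these genes. DKD against Sham, which shares the DKD arrays, is tested. That test is not free of the choice. Low DKD values raise the difference used for the choice and also lower DKD against Sham.

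Every animal was a male Crl:CD (SD) rat with 1 single-colour array of renal cortex RNA, and kidneys were collected 14 days after the animals had been put into groups. The 7 DKD+enarodustat rats received 65 mg/kg of streptozotocin intravenously 7 days before grouping, and then feed that contained 0.01% (w/w) enarodustat. The 7 DKD rats received the same dose of streptozotocin and normal feed, and the 5 Sham rats received vehicle and normal feed. Streptozotocin destroys insulin-producing beta cells, so it models diabetes by insulin loss. Blood glucose and body weight had been balanced between both diabetic groups. No group analysed here received enarodustat without streptozotocin. Enarodustat inhibits the prolyl hydroxylases that mark HIF for degradation.

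HIF is a transcription factor that accumulates when oxygen falls or when its prolyl hydroxylases are blocked. Its mitochondrial targets lower the load on respiration, exchange subunits of the respiratory chain, or mark mitochondria for removal. Bnip3 and Bnip3l (also called Nix) sit in the outer mitochondrial membrane and bind LC3-family proteins on the growing autophagosome, and Fundc1 does the same under hypoxia without being a classical HIF target. The cortex is rich in mitochondria because proximal tubules drive reabsorption with oxidative metabolism.

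The upstream 250 bases of the promoters are shown first because HIF binds DNA at a short core, ACGTG or GCGTG, and the genes of this set differ in how often these letters stand before their start. RefSeq's promoter table (GRCr8) held an entry for 4 of the 7 genes. Each sequence reads 5′ to 3′ on the gene's own strand, and capitals mark ACGTG or GCGTG on either strand (CACGT and CACGC are their reverse complements).
Bnip3 promoter, chr1:203154963-203155212, minus strand: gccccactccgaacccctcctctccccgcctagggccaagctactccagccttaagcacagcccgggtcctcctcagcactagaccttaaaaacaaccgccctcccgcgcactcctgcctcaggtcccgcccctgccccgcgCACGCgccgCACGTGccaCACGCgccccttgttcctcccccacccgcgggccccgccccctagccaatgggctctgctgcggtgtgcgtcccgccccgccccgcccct
Higd1a promoter, chr8:130400889-130401138, minus strand: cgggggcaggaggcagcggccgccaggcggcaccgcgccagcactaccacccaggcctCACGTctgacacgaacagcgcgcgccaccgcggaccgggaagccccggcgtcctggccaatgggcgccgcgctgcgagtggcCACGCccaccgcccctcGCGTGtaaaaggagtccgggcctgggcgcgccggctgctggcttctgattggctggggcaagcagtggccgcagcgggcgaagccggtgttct
Mgarp promoter, chr2:137590295-137590544, minus strand: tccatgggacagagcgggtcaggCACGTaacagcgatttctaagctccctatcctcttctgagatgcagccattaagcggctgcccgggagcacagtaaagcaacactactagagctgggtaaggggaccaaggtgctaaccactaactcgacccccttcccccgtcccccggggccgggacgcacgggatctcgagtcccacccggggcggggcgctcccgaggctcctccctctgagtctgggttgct
Ndufa4l2 promoter, chr7:65241919-65242168, plus strand: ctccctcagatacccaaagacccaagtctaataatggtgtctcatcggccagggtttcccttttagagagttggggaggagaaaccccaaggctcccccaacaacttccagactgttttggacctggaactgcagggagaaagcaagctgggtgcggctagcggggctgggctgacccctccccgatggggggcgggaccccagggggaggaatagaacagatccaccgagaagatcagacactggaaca

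Positions are counted from the gene's start, with -1 as the base before it. Bnip3 held 4 matches between positions -108 and -86, and those at -99 to -95 and -98 to -94 overlap because CACGTG reads as ACGTG on both strands. Higd1a held 3 matches, beginning at positions -192, -110 and -93. Mgarp held 1, at positions -227 to -223, and Ndufa4l2 held none in this window. Of 33469 promoters of the same length, 36.7% held at least 1 match, 6.2% at least 3 and 2.4% at least 4. The core contains a CG, and the G and C content was 72.4% for Bnip3, 74.4% for Higd1a, 62.8% for Mgarp and 57.6% for Ndufa4l2, against a median of 51.2% over all promoters. The part of base composition in these counts was not tested, and a match describes letters, not a binding site.

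Bnip3 and Bnip3l are paralogues, so 1 probe of each is shown as well. The probes that stand for these genes in the results are others, and their sequences were not compared. Each probe shown has 60 bases. Its ends lie 2122 (Bnip3) and 1169 bases (Bnip3l) apart on rn4, the build named in the headers, so each joins separate stretches of genome. Capitals mark the ungapped match between them that scored highest with 1 for an identical base and -2 for a different one, 13 bases with 11 identical. With -1 for a different base the highest-scoring match had 22 bases with 17 identical.
Bnip3 probe A_44_P1370838, chr1:198683944-198686065, minus strand: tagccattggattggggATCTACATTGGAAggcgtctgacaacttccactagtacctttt
Bnip3l probe A_44_P1113299, chr15:46519170-46520338, minus strand: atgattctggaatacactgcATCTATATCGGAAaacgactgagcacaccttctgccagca

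The other probes lie on rn4 at chr2:140282421-140282480 (Mgarp, minus strand), chr8:127084918-127084977 (Higd1a, plus strand), chr3:143114177-143114236 (Cox4i2, plus strand) and chrX:16688597-16688656 (Fundc1, plus strand). Those that stand for Bnip3 and Bnip3l lie at chr1:198683030-198683089 and chr15:46516681-46516740, both on the minus strand, and that of Ndufa4l2 at chr7:67493727-67493786 on the plus strand. The second Ndufa4l2 probe, A_44_P1154952, lies at chr7:67493467-67493631 on the plus strand. Its ends lie 165 bases apart, so it also joins separate stretches of genome. The Higd1a probe carries the accession of that gene's RefSeq transcript, but lies on the plus strand of rn4 while RefSeq places the gene on the minus strand of GRCr8. Whether the builds differ in orientation there was not tested, so the Higd1a values rest on a single probe whose strand is not settled. No rn4 annotation was used here, so exons are not assigned.

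A level here is the log2 processed signal of a probe minus the 75th percentile of its array, so levels compare arrays for 1 probe and not 1 gene with another. A probe counted as detected where the scanner software marked it well above background. The lowest signal so marked lay at -6.63 ± 0.25 (SD) on the 9 arrays of slide row 2 and at -7.58 ± 0.12 on the 10 arrays of row 1. All DKD+enarodustat arrays and DKD replicates 2 and 4 lay in row 2, all Sham arrays and the other DKD arrays in row 1, and each of the 3 slides held all groups. No row held both DKD+enarodustat and Sham arrays, so that comparison has no value within a row, and its fit with slide row as a covariate takes the row difference from the DKD arrays alone. In that fit DKD+enarodustat differed from Sham by 3.96 for Mgarp, 1.18 for Bnip3 and 0.13 for Bnip3l (95% interval of the last -0.07 to 0.33). Of all genes tested, 2.00% passed an adjusted p of 0.05 for DKD+enarodustat against DKD, 26.1% for the same rats against Sham and 17.1% for DKD against Sham. Among the 7 genes these counts were 4, 3 and 2, and nothing is read from the first pair, since the choice of genes used those arrays. All 4 for DKD+enarodustat against DKD were higher, where 1.07% of genes were called higher and 0.933% lower. The genes were chosen with that difference in view, so setting this count beside these shares is no test. The same holds for the counts of groups without overlap that involve enarodustat. With slide row as a covariate the 4 differences were 3.87 for Mgarp, 0.70 for Bnip3, 0.24 for Bnip3l and 0.47 for Higd1a. The label was also not stable. Bnip3l and Higd1a lost it in that fit, all 4 lost it within single slides, and all but Mgarp within row 2. Of the 2 for DKD against Sham, 1 was higher and 1 lower, where 8.02% and 9.07% of genes were called in those directions. Groups did not overlap for 3 members in DKD+enarodustat against DKD, all higher (1.25% of genes in either direction, 0.685% higher and 0.566% lower). They did not overlap for 1 member in DKD against Sham, higher (10.7% of genes in either direction, 4.85% higher and 5.83% lower), and for 3 in DKD+enarodustat against Sham, higher (14.4%, 5.51% and 8.87%). In DKD against Sham the share of members called is thus 2 of 7 against a background of 17.1%, and the median member differed by -0.03 against -0.02 over all genes. The plot of levels by array shows all 7 genes.

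**Figure D1:**
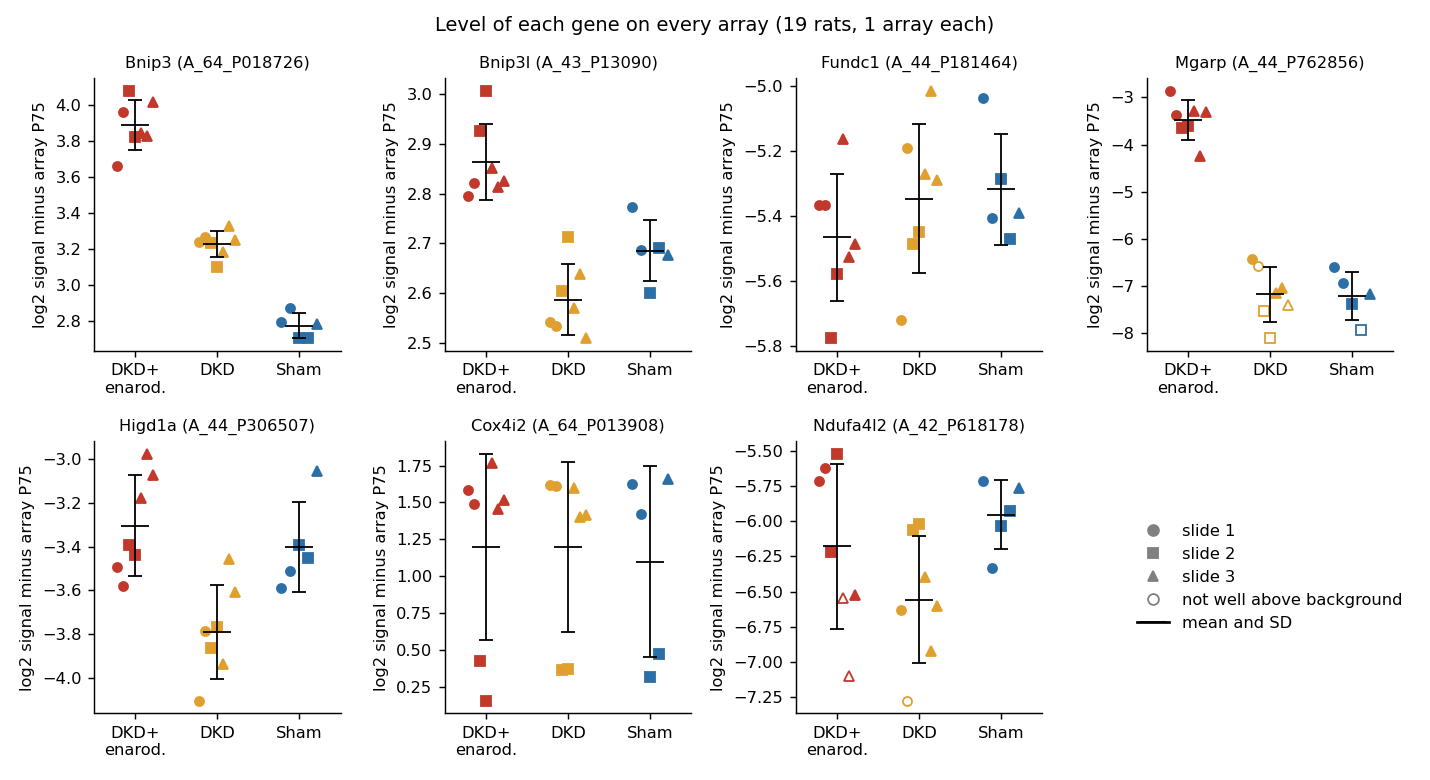
Normalised log2 level of each gene's representative probe on 19 arrays (y axis, log2 signal minus the array's 75th percentile) in DKD+enarodustat, DKD and Sham. Points are arrays, shapes are slides, open points were not well above background, and bars are the mean and SD. Bnip3 separated all groups, Mgarp and Bnip3l separated DKD+enarodustat from the others (Bnip3l by a gap of only 0.02 from Sham), and Cox4i2 split by slide.

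Bnip3, an established HIF target and mitophagy receptor, had the same order of groups on both of its probes. On probe A_64_P018726, levels ran from a lowest of 3.66 through a median of 3.85 to a highest of 4.08 in DKD+enarodustat, and from 3.10 through 3.24 to 3.33 in DKD, and were 2.79, 2.87, 2.71, 2.71 and 2.78 in Sham. The 3 groups formed 3 separate bands, with DKD between the other groups. Means were 3.89 ± 0.14 in DKD+enarodustat and 3.23 ± 0.07 in DKD (SD, n = 7 each), and 2.77 ± 0.07 in Sham (SD, n = 5).

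Bnip3 rose in DKD against Sham by 0.46 ± 0.07 on the log2 scale (SE; 95% interval 0.31 to 0.60; 1.37-fold; limma adjusted p = 0.000154), and all 7 DKD arrays lay above all Sham arrays. The second probe, A_44_P1370838, gave 0.50 ± 0.08 (0.32 to 0.68; limma adjusted p = 0.000499 over all kept probes). Within the slides the difference was 0.42, 0.46 and 0.47. DKD+enarodustat lay above DKD by a further 0.66 ± 0.06 (0.53 to 0.79; 1.58-fold) and above Sham by 1.11 ± 0.07 (0.97 to 1.26; 2.16-fold). The second probe gave 0.50 and 1.00 for the same differences. Inside slide row 2, DKD+enarodustat averaged 3.89 and the DKD arrays 3.18. In pieces of cortex, a change in the number of cells of a type and a change in RNA per cell cannot be told apart.

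Bnip3l, a receptor best known for clearing mitochondria from maturing red cells, had smaller differences. On probe A_43_P13090 its levels ran from 2.80 through 2.82 to 3.01 in DKD+enarodustat, from 2.51 through 2.57 to 2.71 in DKD, and were 2.77, 2.69, 2.60, 2.69 and 2.68 in Sham. The DKD+enarodustat arrays lay above all others, while DKD and Sham overlapped. DKD+enarodustat was above DKD by 0.28 ± 0.05 (SE; 95% interval 0.17 to 0.38; 1.21-fold) and above Sham by 0.18 ± 0.05 (0.07 to 0.29), but the difference from Sham shrank to 0.04 after normexp background correction followed by quantile normalisation, and the authors' value table gave 0.05. DKD differed from Sham by -0.10 ± 0.05 (-0.21 to 0.01; limma adjusted p = 0.243). It passed the test in DKD under other scalings, with -0.20 after normexp and quantile steps (adjusted p = 0.0129), -0.19 after quantile normalisation alone (adjusted p = 0.0417) and -0.20 in the authors' values (adjusted p = 0.00317). The second probe, A_44_P1113299, averaged -1.11 ± 0.13 in DKD+enarodustat, -1.31 ± 0.09 in DKD and -1.28 ± 0.08 in Sham, with overlapping groups.

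Erythroid markers belong beside Bnip3l. Of the 8 listed, 6 passed the detection minimum and Epb42 and Rhag were well above background on no array. By limma 0 of the 6 passed the test between DKD+enarodustat and DKD or between DKD and Sham, and 0 had an unadjusted p under 0.05 in either, with median differences of 0.46 and 0.34. Of all genes tested, 2.00% and 17.1% passed in these comparisons. The summed level of the 6 erythroid markers ran from 3.76 to 7.37 in DKD+enarodustat, from 3.72 to 6.41 in DKD and from 4.23 to 5.08 in Sham. Its part in the Bnip3l values was not tested.

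Fundc1, a receptor of hypoxic mitophagy, had overlapping groups. Its levels ran from -5.78 through -5.49 to -5.16 in DKD+enarodustat and from -5.72 through -5.29 to -5.02 in DKD, and were -5.04, -5.41, -5.29, -5.47 and -5.39 in Sham. Means were -5.47 ± 0.19 in DKD+enarodustat and -5.35 ± 0.23 in DKD (SD, n = 7 each), and -5.32 ± 0.17 in Sham (SD, n = 5). It was detected on every array, but at a low processed intensity. This was 17.9 to 27.3 units in DKD+enarodustat, 18.2 to 33.3 in DKD and 18.8 to 28.1 in Sham. DKD+enarodustat differed from DKD by -0.12 (95% interval -0.35 to 0.11) and DKD from Sham by -0.03 (-0.28 to 0.22; limma adjusted p = 0.929). The DKD difference turned to 0.20 within slide 3 and to 0.041 without Sham replicate 1. After normexp correction and quantile normalisation DKD+enarodustat differed from DKD by -0.07.

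Mgarp, a mitochondrial protein that links mitochondria to their transport and shape and responds to HIF in other tissues, had the largest difference among the 7 genes for DKD+enarodustat against DKD. Its processed intensity was 53.9 to 128 units in DKD+enarodustat, 3.78 to 11.2 in DKD and 3.38 to 9.55 in Sham. On the log2 level scale that was -4.24 through -3.37 to -2.86 in DKD+enarodustat and -8.11 through -7.15 to -6.43 in DKD, and -6.59, -6.93, -7.39, -7.94 and -7.18 in Sham. It was detected on 7 of 7 DKD+enarodustat arrays, 3 of 7 DKD arrays and 4 of 5 Sham arrays, so DKD and Sham stood near the detection limit.

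DKD+enarodustat was above DKD by 3.70 ± 0.26 (SE; 95% interval 3.16 to 4.25 on the log2 scale) and above Sham by 3.73 ± 0.29. The size depends on how signal near background is handled: after normexp correction and quantile normalisation they were 1.23 and 1.24. Within slides the first difference was 3.38, 4.19 and 3.59, and in row 2 alone 3.87. Both DKD arrays of row 2 (-6.57 and -8.11) and both of slide 2 (-7.53 and -8.11) were not well above background. The sizes 3.87 and 4.19 are thus differences from undetected signal. The gap between the lowest DKD+enarodustat array and the highest DKD array was 2.18. The difference of DKD from Sham did not pass the test (0.03 ± 0.29, 95% interval -0.57 to 0.63, limma adjusted p = 0.974), at a signal near the limit of detection. The plot of both corrections shows the array floors.

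**Figure D2:**
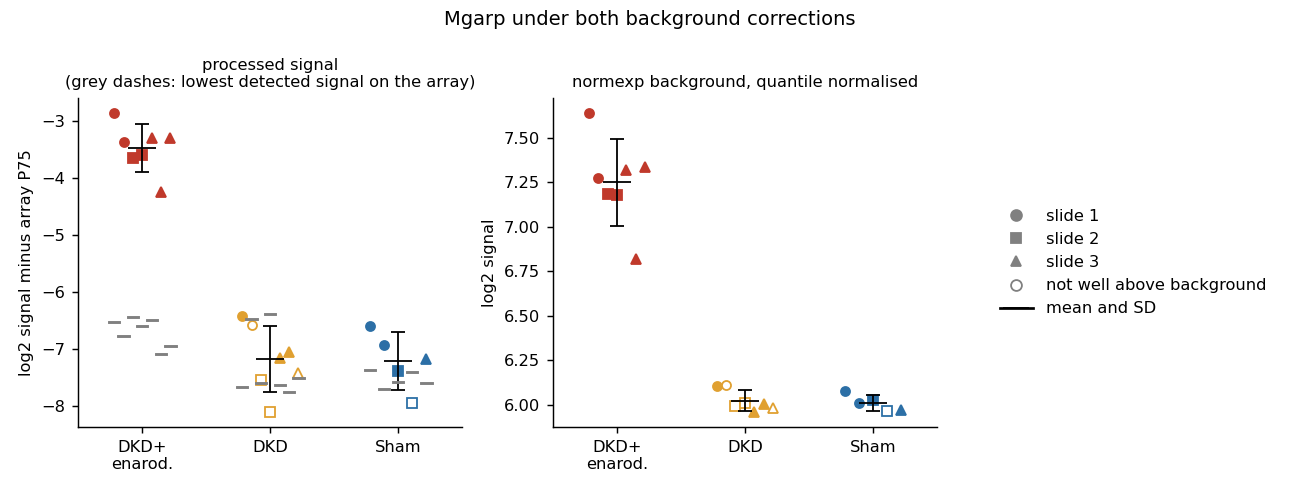
Mgarp on 19 arrays in DKD+enarodustat, DKD and Sham. The left panel gives log2 processed signal minus the array's 75th percentile, with grey dashes at each array's lowest detected signal, and the right panel log2 signal after normexp correction and quantile normalisation. All 7 DKD+enarodustat arrays lay above every other array in both, by a smaller distance on the right.

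Higd1a, which protects respiratory complex assembly and cell survival in hypoxia, was lowest in DKD. Its levels ran from -3.58 through -3.39 to -2.97 in DKD+enarodustat and from -4.11 through -3.79 to -3.46 in DKD, and were -3.59, -3.51, -3.39, -3.45 and -3.06 in Sham. DKD fell by 0.39 ± 0.13 on the log2 scale against Sham (SE; 95% interval -0.65 to -0.12; limma adjusted p = 0.0424). This fall rests on the DKD arrays that the choice of genes also used. DKD+enarodustat was above DKD by 0.49 ± 0.12 (0.24 to 0.73) and differed from Sham by 0.10 ± 0.13 (-0.17 to 0.36). The difference from DKD shrank to 0.27 after normexp and quantile steps, and the authors' values gave 0.26.

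Slide held 67.4% of the within-group variance of Higd1a, and the groups separate better inside slides. In each of the 3 slides the DKD arrays were the lowest, by a mean difference from Sham of -0.40, -0.39 and -0.61, and no DKD array overlapped with DKD+enarodustat or Sham. With slide as a covariate DKD fell by 0.46 ± 0.08 against Sham (adjusted p = 0.000829), with the replicate block by 0.50 (adjusted p = 0.00158), and in the authors' value table by 0.22 (adjusted p = 0.00108). The call was lost with normexp (0.0687), median centring (0.0635), no filter on dim probes (0.0733), slide row as a covariate (0.0787), within row 1 (0.108) and without the DKD arrays of row 2 (0.0900), and without any 1 of Sham replicates 2 to 5 or DKD replicates 1 to 5, with adjusted p-values of 0.0528 to 0.125.

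Cox4i2, the alternative isoform of a cytochrome c oxidase subunit, which replaces Cox4i1 in low oxygen in cell types of lung and vessel wall, had near-equal group levels, and DKD against Sham did not pass the test. Levels ran from 0.16 through 1.49 to 1.77 in DKD+enarodustat and from 0.37 through 1.42 to 1.62 in DKD, and were 1.63, 1.42, 0.32, 0.48 and 1.66 in Sham. DKD+enarodustat differed from DKD by 0.00 (95% interval -0.66 to 0.66) and DKD from Sham by 0.10 (-0.63 to 0.82; limma adjusted p = 0.913).

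Its levels split by slide. All 6 arrays of slide 2 read between 0.16 and 0.48 and all 13 of the other slides between 1.40 and 1.77, a mean difference of -1.20, larger in size than that of 92.7% of genes, and slide held 96.6% of the within-group variance. In the authors' value table the same difference was -0.16, with levels of 10.98 to 11.23 on slide 2 and 11.14 to 11.45 on the others. With slide as a covariate the interval for DKD+enarodustat against DKD narrowed to -0.14 to 0.14, and for DKD against Sham to -0.20 to 0.12. The plot of Cox4i2 by slide gives both scales.

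**Figure D3:**
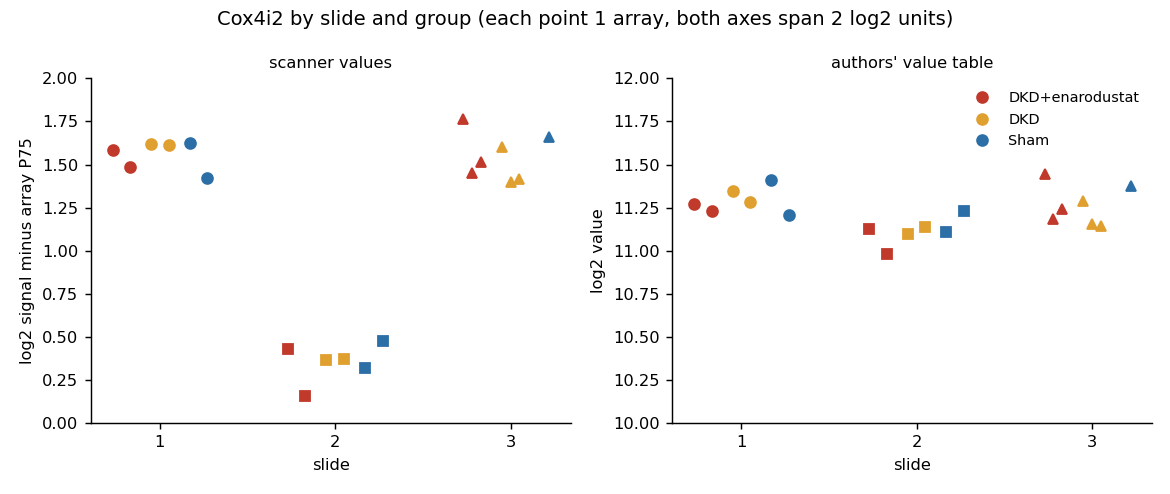
Cox4i2 on 19 arrays by slide (x axis) and group (colour), as log2 processed signal minus the array's 75th percentile (left) and as the authors' log2 value (right), each y axis spanning 2 log2 units. Slide 2 stands apart on the left, at 0.16 to 0.48. Within each slide no group stands apart from both others. On slide 1 the DKD arrays lie above the DKD+enarodustat arrays, and on slide 3 the Sham array lies above the DKD arrays.

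Ndufa4l2, the HIF-induced relative of Ndufa4 that lowers complex I activity, was dim. Its probe A_42_P618178 was detected on 5 of 7 DKD+enarodustat arrays, 6 of 7 DKD arrays and 5 of 5 Sham arrays, and averaged -6.18 ± 0.59, -6.56 ± 0.45 and -5.95 ± 0.25 in those groups (SD). It ran from -7.10 through -6.22 to -5.52 in DKD+enarodustat and from -7.28 through -6.60 to -6.02 in DKD, and read -5.71, -6.33, -6.04, -5.93 and -5.76 in Sham. DKD differed from Sham by -0.61 ± 0.26 (SE; 95% interval -1.16 to -0.05; limma adjusted p = 0.135), which was -0.08 with normexp and quantile normalisation. DKD+enarodustat differed from DKD by 0.38 (-0.13 to 0.89), and by 1.29, 0.17 and -0.08 within slides. The second probe, A_44_P1154952, gave 1.17 (0.31 to 2.04) for DKD+enarodustat against DKD, with levels of -7.16 through -5.93 to -4.11 in DKD+enarodustat and -8.58 through -6.56 to -6.41 in DKD. In Sham that probe read -6.09, -6.69, -6.55, -6.43 and -5.97. The groups overlapped on both probes, and the probes differed in the size of the difference and in part in its direction. DKD+enarodustat differed from Sham by -0.22 (95% interval -0.78 to 0.33) on the first probe and by 0.57 (-0.38 to 1.51) on the second. Within slide 3 DKD+enarodustat differed from DKD by -0.08 on the first and by 1.44 on the second. With the mean of both probes DKD against Sham gave -0.61 (adjusted p = 0.0471). Neither probe passed alone by limma (adjusted p = 0.135 and, over all kept probes, 0.424). The mean includes the second probe's -8.58 on DKD replicate 4, where that probe was not well above background.

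**Figure D4:**
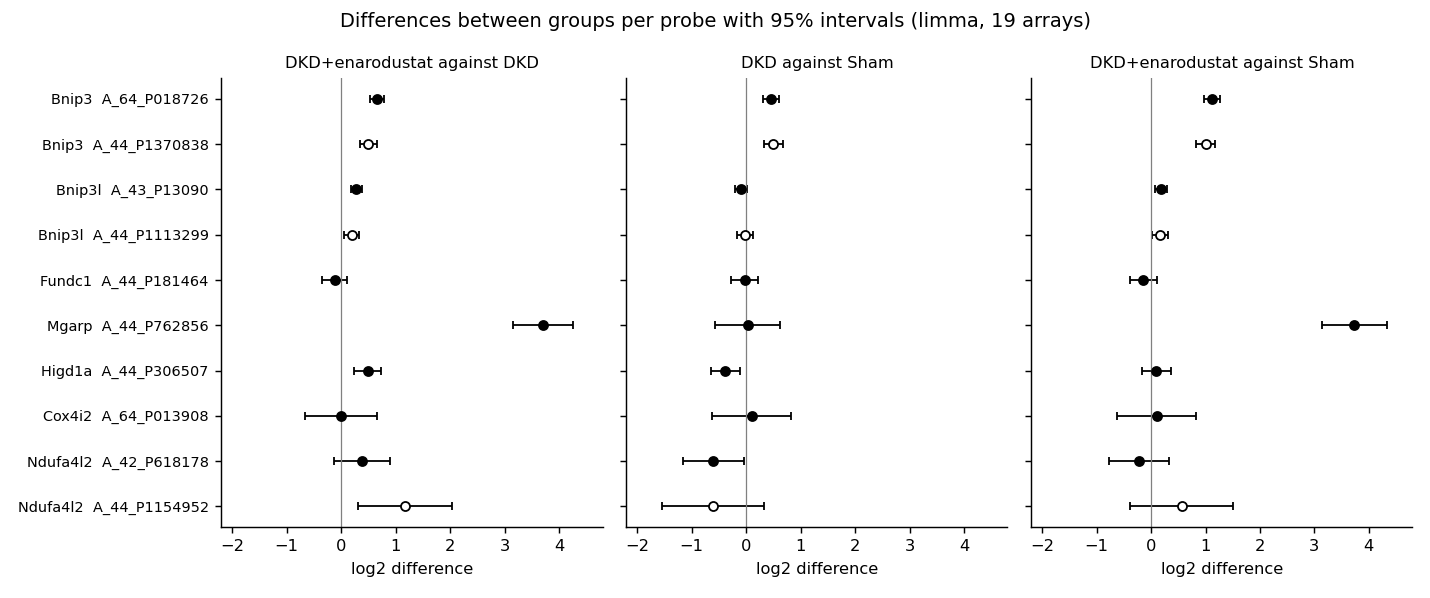
Log2 difference per probe (x axis) with 95% intervals for the 3 comparisons, filled points for the probe standing for its gene and open points for the others. Bnip3 lies above 0 in all 3, Mgarp near 3.70 in both comparisons with enarodustat, and DKD against Sham has Bnip3 above and Higd1a and the filled Ndufa4l2 point below 0, the last without passing the adjusted threshold.

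Cox4i2 and Ndufa4l2 mark pericytes in mouse, so pericyte and smooth muscle markers were summed. The level of all 12 ran from 1.90 to 2.49 in DKD+enarodustat, from 2.063 to 2.42 in DKD and from 1.79 to 2.059 in Sham. Every DKD array thus lay above every Sham array, by a narrow gap, and 2 of 12 (Kcnj8 and Tagln) rose in DKD against Sham. Of all genes tested, 8.02% were called higher and 9.07% lower in that comparison. In DKD against Sham 5 of 7 proximal tubule markers fell (Slc34a1, Lrp2, Aqp1, Slc22a6 and Miox) and 1 rose (Cubn), with a summed level of 7.75 to 8.12 in DKD+enarodustat, 7.86 to 8.06 in DKD and 8.27 to 8.39 in Sham, so that Sham lay above both diabetic groups. Of 8 adipocyte markers tested, 4 rose (Fabp4, Cfd, Lep and Car3), with a summed level of -0.14 to 3.66 in DKD+enarodustat, -0.26 to 4.91 in DKD and -1.16 to -0.44 in Sham. By limma 0 markers of these 3 lists passed for DKD+enarodustat against DKD, and unadjusted p was under 0.05 for 1 pericyte or smooth muscle marker, 0 proximal tubule and 0 adipocyte markers. Plin1, an adipocyte-defining gene, was well above background on 3 arrays and was not tested. The part of these markers in the Bnip3 and Higd1a results was not tested.

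The genes of the partner isoforms did not pass limma's test in DKD+enarodustat against DKD or in DKD against Sham (0 of 7 in each; 1 and 2 at an unadjusted p under 0.05). Of all genes tested, 2.00% and 17.1% passed in these comparisons. Cox4i1, the ubiquitous partner of Cox4i2, differed by 0.06 in DKD+enarodustat against DKD and by -0.09 in DKD against Sham. Ndufa4, which Ndufa4l2 resembles, differed by -0.21 (adjusted p = 0.0788) and -0.15 in the same order of comparisons, Higd2a by 0.02 and 0.12, and Higd1b by 0.33 and 0.51. In DKD+enarodustat against Sham, Ndufa4 fell by 0.36 (adjusted p = 0.000514) and Higd1b rose by 0.85 (adjusted p = 0.0291), but with slide row as a covariate neither passed (Ndufa4 -0.27, adjusted p = 0.219; Higd1b -0.09, adjusted p = 0.937). Fundc2 gave -0.18 and 0.23, Lonp1, the matrix protease that degrades Cox4i1 in hypoxia, 0.06 and 0.01, and Rbpj, which acts with Chchd2 on the Cox4i2 promoter in human cells, -0.07 and -0.09. The probe the files call Chchd2 is now assigned to Chchd2l3 by RefSeq and was not used, and Higd1c was not analysed here.

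Genes of autophagy and of mitochondrial shape that are not in the set were tested as lists. Beside their counts stand the shares of all genes tested. These were 1.07% higher and 0.933% lower for DKD+enarodustat against DKD, and 8.02% and 9.07% for DKD against Sham. Among 17 mitophagy receptors and adaptors, 0 rose and 3 fell for DKD+enarodustat against DKD, with a median of -0.15 against -0.02 over all genes. Pgam5, the phosphatase that activates Fundc1, fell by 0.28 ± 0.05 (limma adjusted p = 0.00856), the kinase Tbk1 by 0.54 ± 0.12 (adjusted p = 0.0225) and Tax1bp1, a cargo adaptor, by 0.22 ± 0.05 (adjusted p = 0.0401). For DKD against Sham 1 rose, the adaptor Sqstm1 (p62), by 0.64 ± 0.09 (adjusted p = 0.000133), and 0 fell, with a median of 0.00. Of 20 autophagosome genes, 0 passed for DKD+enarodustat against DKD by limma, 8 had an unadjusted p under 0.05, and the other settings gave 0 to 5 lower and 0 higher. In DKD against Sham Gabarapl1, an LC3-family protein, rose by 0.50 ± 0.09 (adjusted p = 0.00146), and Map1lc3a, Gabarap and Atg5 fell by 0.18, 0.24 and 0.30 (adjusted p = 0.0176, 0.0273 and 0.0366).

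Among 15 genes of mitochondrial dynamics and trafficking, Rhot1, the outer membrane GTPase that couples mitochondria to motors, fell by 0.36 ± 0.07 in DKD+enarodustat against DKD (adjusted p = 0.00564). In DKD against Sham Mfn1, a mitofusin, rose by 0.94 ± 0.11 (adjusted p = 1.16e-05) and Mtfp1, a fission protein, fell by 0.38 ± 0.13 (adjusted p = 0.0487). The falls of Pgam5, Tbk1, Tax1bp1 and Rhot1 lost their call with slide row as a covariate, and Tax1bp1 in 20 of 31 settings, Tbk1 also with only both groups fitted and without DKD replicate 6 or 7. The Tbk1 difference was -0.21 with normexp and quantile normalisation (adjusted p = 0.0120). With the replicate block Tax1bp1 missed the threshold (adjusted p = 0.0588), and so did Mtfp1 in DKD against Sham (adjusted p = 0.0792), which lost its call in 23 of 31 settings. Atg5, Gabarap and Map1lc3a lost theirs in 9, 8 and 6 of 31, among them the removal of Sham replicate 4 for all 3, Sham replicate 3 for Gabarap and Map1lc3a, Sham replicate 5 for Gabarap and Atg5, and Sham replicate 2 or DKD replicate 1, 3, 5 or 7 for Atg5.

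Other HIF targets were read beside the set. Of 8 other HIF-linked mitochondrial genes, 2 rose and 0 fell for DKD+enarodustat against DKD: Pdk1, which holds pyruvate back from mitochondria, by 1.01 ± 0.13 (adjusted p = 0.000351) and Fam162a by 0.45 ± 0.06 (adjusted p = 0.000403). In DKD against Sham 0 rose and 2 fell, Mxi1, a repressor of Myc, by 0.67 ± 0.10 (adjusted p = 0.000162) and Pdk3 by 0.44 ± 0.08 (adjusted p = 0.000952). Of 22 targets outside mitochondria, 12 rose and 0 fell for DKD+enarodustat against DKD, with a median of 0.44, among them Ldha by 1.12 ± 0.08 (adjusted p = 3.93e-07), Aldoc by 1.54 ± 0.13 (adjusted p = 2.77e-06), P4ha1 by 0.87 ± 0.10 (adjusted p = 7.38e-05) and Aldoa by 0.58 ± 0.08 (adjusted p = 0.000749). In DKD against Sham 4 rose and 2 fell: Ldha by 0.65, Aldoc by 0.91, Hilpda by 0.58 and Adm by 0.61 rose (adjusted p = 8.87e-05, 0.000281, 0.000632 and 0.00222), and Egln1 and Bhlhe40 fell by 0.29 and 0.93 (adjusted p = 0.00700 and 0.00878). The calls of Pdk1 and Aldoa in DKD+enarodustat against DKD were also lost with slide row as a covariate. Over 31 other settings the targets outside mitochondria counted 5 to 15 higher and 0 to 1 lower in that comparison. The other HIF-linked mitochondrial genes counted 1 to 2 higher and 0 lower. These lists were chosen with earlier results in view, and their counts are not independent evidence of a direction. Of all genes tested, 8.02% were called higher and 9.07% lower in DKD against Sham. The 2 of 22 targets that fell there are near that share. In DKD+enarodustat against DKD the shares were 1.07% higher and 0.933% lower.

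**Figure D5:**
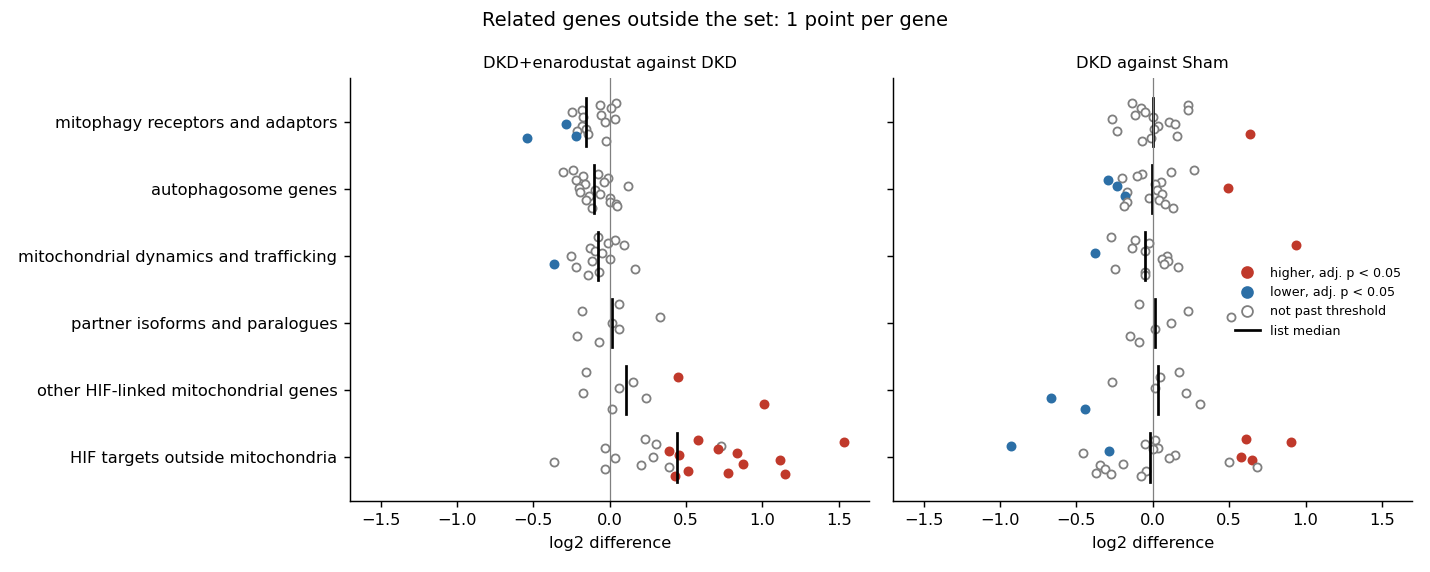
Log2 difference (x axis) of genes outside the set in 6 lists, for DKD+enarodustat against DKD and DKD against Sham. Each point is a gene, filled in red or blue where it passed an adjusted p of 0.05 as higher or lower, and the black line is the list median. On the left 12 of 22 HIF targets are red and the 3 called mitophagy genes blue.

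The genes whose pattern over the 19 arrays was most like each member, by Pearson's r after slide means were removed, are given as a description, since these arrays also carry the 3 groups' differences. Mgarp was most like Gpi (0.97), Aldoa (0.96) and Tmco2 (0.96). Bnip3 was most like Ldha (0.97), Lama5 (0.96) and Aldoc (0.96), and Bnip3l like P4ha1 (0.88), Ifnk (0.87) and Gpi (0.86). Higd1a was most like Slc11a2 (0.86), Isoc2b (0.84) and Ptma (0.81). For Fundc1 (Trit1, 0.79; Pea15, 0.78; Zdhhc6, 0.76), Cox4i2 (Xiap, 0.84; Rbmx, 0.78; Cox6a1, 0.78) and Ndufa4l2 (Ess2, 0.78; Nf1, 0.78; Bpifb6, 0.78) the highest values were lower than for Bnip3 and Mgarp.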

How the data were processed

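Per the file headers, Agilent Feature Extraction 11.5.1.1 gave each spot of a rat's array a Cy3 intensity, background-subtracted and detrended within that array. A second table that the authors deposited holds log2 values of 22739 probes, with column medians between 8.13 and 8.21; it tracks normexp and quantile-normalised scanner signal (r 0.9973 to 0.9993). How it was made and centred is not given in the sources used here, and Mgarp and Ndufa4l2 have no row in it. Limma is also listed, without a version, in the submitters' processing notes.

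Log2 of the processed intensity minus each array's 75th percentile was used, outlier spots were left out and spots of a probe averaged. Probes well above background on at least 5 of 19 arrays were kept, the one with the highest mean stood for a gene, and names came from RefSeq accessions where they matched (21109 probes; another 1977 through a shared file name; 22512 kept the file's name). The 3 groups (7, 7 and 5 rats) entered 1 model (lmFit and eBayes of limma 3.58.1, R 4.3.3) with Benjamini-Hochberg adjustment over all genes and a threshold of 0.05. The fit was checked on simulated data with 200 changed genes. Of changes of 0.5 log2 it recovered 24% in DKD against Sham, 34% in DKD+enarodustat against DKD and 56% in DKD+enarodustat against Sham. The first and last of these have the same group sizes, so the shares are rough. The data had 4140 genes called in DKD against Sham, far more than were changed in the simulation, so its shares need not hold there. Of changes of 2 log2 it recovered 90% in DKD against Sham and 92% in DKD+enarodustat against DKD. A gene that missed the threshold may therefore still have changed. Arrays of 1 group correlated at 0.9683 to 0.9903; their number limits precision.

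Members and lists were chosen with earlier results of these data known. The text names all members, all partner isoforms, up to 4 genes per list and comparison by adjusted p, and the 3 genes most like each member; marker genes count as lists, and single marker genes, Egln1 and Bhlhe40 were named after their values were seen. Same-numbered arrays shared a slide, and their deviations correlated at 0.132 to 0.595 for DKD and Sham and 0.142 to 0.419 for DKD+enarodustat and DKD. Since every such pair shared a slide, these values cannot tell a pairing by number from the slide. A block by replicate number was fitted only as another setting. Other settings are in the closing section.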

Additional observations from a re-analysis of the deposited data

Results flagged for a closer look

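In 1 of 30 groups of arrays examined (10 probes in 3 groups), 1 array stood far from the rest: Ndufa4l2 probe A_44_P1154952 read -8.58 on DKD replicate 4, against -7.29 for the nearest DKD array, a gap of 0.598 of the group's range. Chance marks about 1 in 20 groups in this way. That array was not well above background for this probe.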

How the results depend on the processing

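Bnip3 kept its direction and its call in DKD against Sham in all settings except within single slides, where 2 arrays face 2 or 3 face 1 (0.42, 0.46 and 0.47, with 0, 0 and 0 members called); in slide 3 the lone Sham array is assumed to vary like the DKD arrays. The number of members called was 1 in place of 2 with median centring, no filter, slide row as a covariate, within row 1 and without the DKD arrays of row 2 (a setting chosen after seeing the data), and 1 to 2 when 1 array was left out. It was 3 with quantile normalisation alone and in the authors' value table, where Bnip3l passed, and with the mean of a gene's probes, where Ndufa4l2 passed. The replicate block changed no member's call in DKD against Sham; it gave -0.50 for Higd1a and 0.44 for Bnip3, and among the genes named from lists it ended only the calls of Tax1bp1 and Mtfp1. Bnip3l gained a call after normexp and quantile, or quantile alone, and in the authors' value table.

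Other members, with differences near 0 in DKD against Sham, changed sign. Cox4i2 was -0.037 with slide as a covariate, -0.028 and -0.18 within slides 2 and 3, -0.058 in the authors' value table and -0.10 to 0.24 with 1 array left out. Mgarp was -0.16 and -0.027 within slides 2 and 3 and -0.16 to 0.18 with 1 array left out, Fundc1 0.20 within slide 3 and -0.084 to 0.041 with 1 array left out, and Bnip3l 0.013 within slide 2. The causes were not tested.

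Genes called in DKD against Sham numbered 4140 (1943 higher, 2197 lower; 1624 and 2941 with normexp and quantile normalisation), 0, 3 and 3 within slides, and 3156 to 4339 with 1 array left out. For DKD+enarodustat against DKD they numbered 485 (259 higher, 226 lower), 291 with median centring, 284 with no filter, 915 with slide and 84 with slide row as a covariate, 12 within row 2, 2, 0 and 0 within slides, 276 with only both groups, 1770 in the authors' value table (609 higher, 1161 lower), and 286 to 497 with 1 array left out, lowest without DKD replicate 6. For DKD+enarodustat against Sham they numbered 6311, 10744 with no filter, 1031 with slide row as a covariate, 2, 6 and 0 within slides, and 5175 to 6513 with 1 array left out. Within slides the unadjusted p fell under 0.05 for 1275, 1267 and 2619 genes in DKD+enarodustat against DKD, for 3935 in DKD against Sham within slide 1 and for 3722 in DKD+enarodustat against Sham within slide 3 (limma).

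Signal near background limits Mgarp and Ndufa4l2, low signal limits Fundc1, and 1 probe each limits Fundc1, Higd1a, Mgarp and Cox4i2.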
